A study of Mus musculus with 16 samples.

Results

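The genes described here are the ligands and receptors of axon guidance in the mouse retina, measured by RNA-seq after optic nerve crush in mice given vehicle or a drug against DLK (dual leucine zipper kinase). Members are the protein-coding genes whose symbol begins with Sema, Plxn, Epha, Ephb, Efna, Efnb or Unc5, with Robo or Slit and a number, and Nrp1, Nrp2, Dcc, Neo1, Ntn1 and Ntn4. By that rule 70 genes were found, all of them among the 36528 identifiers of the files, and 68 had enough reads to be tested among 19391 genes. They are 20 semaphorins, 9 plexins, 2 neuropilins, 8 ephrins, 14 Eph receptors, 3 Slits, 4 Robos, 2 netrins and 6 netrin receptors. The other 2, Unc50 and Unc5cl, match by the letters of their names and are not netrin receptors. The untested members were Plxnb3, at 0.003038 to 0.03485 nRPKM over the libraries, and Unc5cl, at 0 to 0.01245 nRPKM. The unit nRPKM is the authors' read count per gene length and library depth (RPKM), adjusted by a size factor for each library.

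Guidance cues steer growing axons by attraction or repulsion. Semaphorins act through plexins, with neuropilins as co-receptors for most secreted class 3 semaphorins. Ephrins act through Eph receptor tyrosine kinases, Slits through Robo receptors, and netrins through Dcc, neogenin (Neo1) and the Unc5 receptors. In the developing visual system ephrins and Eph receptors lay out the map of the retina in the brain, Slits and their receptors keep ganglion cell axons on course, and netrin at the optic disc guides them out of the eye. In adults many of these genes stay active in neurons, glia and vessels.

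Retinas were taken 3 days after the crush, an injury to the axons of retinal ganglion cells, the output neurons of the retina. Mice received the vehicle (MCT) or GNE-3511, the DLK inhibitor, at 75 mg/kg, given 60 and 68 h after the injury and so not during the first 60 h. The 4 groups were uncrushed vehicle (n = 3), crushed vehicle (n = 3), uncrushed GNE-3511 (n = 5) and crushed GNE-3511 (n = 5), and the labels name no genetic change in any of them. The labels state 5 mice per drug and do not say which retinas share a mouse, so each p-value is about the spread among these retinas, which may in part be technical. Libraries held 22.35 to 44.75 M counted reads, of which members took 0.2365% to 0.2913%.

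Marker genes of the labelled tissue were present: the summed level of 10 Müller glia markers was 1594 to 2207 nRPKM over the libraries. The summed level of 19 retinal ganglion cell markers was 528.4 to 736.7 nRPKM in uncrushed and 363.1 to 498.9 in crushed vehicle retina, and 664.3 to 871.7 against 451.5 to 556.9 with GNE-3511. In whole retina, fewer cells of a type and less RNA per cell cannot be told apart. The 2 vehicle libraries with the fewest reads stood apart for these genes: uncrushed vehicle replicate 1 was the lowest of the 16 libraries for 31 of the 68 tested members, and crushed vehicle replicate 3 for 11. Crushed vehicle replicate 1 was the highest for 18. Uncrushed vehicle replicate 1 also had the highest mitochondrial share of counts, 4.539%, with crushed vehicle replicate 1 next at 3.133%. Lens transcripts, from a tissue beside the retina, were most abundant in uncrushed vehicle replicate 2 and uncrushed GNE-3511 replicates 3 and 5. Calls of named genes that changed without the 2 shallow or the 3 lens-rich libraries are given with the results or in the last section.

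The members that passed the test in any comparison of the main edgeR fit were 3, all receptors. Epha2 is an Eph receptor tyrosine kinase. Plxnd1 is a plexin best known from blood vessels as the receptor of semaphorin 3E. Unc5a is a netrin receptor tied to axon repulsion. The 250 bases upstream of a listed start site of each are shown because the comparisons turn on these genes. They are from RefSeq (GRCm38.p6), written 5′ to 3′ on the strand of the gene. Capitals mark TGACGTCA in Epha2 and, in Plxnd1 and Unc5a, GGGCGG or its reverse complement CCGCCC.
Epha2, chr4:141300971-141301220, plus strand: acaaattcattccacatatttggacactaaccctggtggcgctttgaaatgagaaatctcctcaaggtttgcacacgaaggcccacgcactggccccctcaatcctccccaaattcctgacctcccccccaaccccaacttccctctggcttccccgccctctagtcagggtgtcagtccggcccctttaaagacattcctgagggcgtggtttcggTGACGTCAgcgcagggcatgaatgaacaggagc
Plxnd1, chr6:115995006-115995255, minus strand: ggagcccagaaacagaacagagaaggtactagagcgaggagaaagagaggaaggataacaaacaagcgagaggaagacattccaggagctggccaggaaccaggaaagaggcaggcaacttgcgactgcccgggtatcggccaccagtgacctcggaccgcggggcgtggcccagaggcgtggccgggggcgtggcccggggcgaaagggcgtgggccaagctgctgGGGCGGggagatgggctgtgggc
Unc5a, chr13:54949161-54949410, plus strand: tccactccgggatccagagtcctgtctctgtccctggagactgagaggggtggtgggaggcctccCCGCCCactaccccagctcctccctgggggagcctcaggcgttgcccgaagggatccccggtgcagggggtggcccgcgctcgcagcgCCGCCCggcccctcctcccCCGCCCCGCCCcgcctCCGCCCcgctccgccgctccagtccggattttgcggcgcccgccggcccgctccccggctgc

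The letters searched were TGACGTCA, the palindrome bound by CREB and ATF family factors, TGANTCA, bound by AP-1, TTCNNNGAA, bound by STAT factors, and GGGCGG, bound by SP1 and related factors. Both strands were read, overlapping matches were counted, and the letters were chosen with the sequences in view. A match describes the sequence and is not a shown binding site. In Epha2, TGACGTCA lay at bases -33 to -26 from the start site and a further GGGCGG match at -96 to -91. In Plxnd1, GGGCGG lay at -23 to -18. Unc5a held 5 GGGCGG matches, of which 2 share a base. The Epha2 window ends where the annotated gene begins, while the windows of Unc5a and Plxnd1 lie inside the annotated genes (chr13:54945151-55006018 and chr6:115954811-115995339), which have an earlier start. TGACGTCA was found in 1.55% of 32851 listed promoters and in 1 of 76 listed for 60 members, that of Epha2. TGANTCA was found in 6.75% of all and in 3 member promoters (Sema4c, Sema4d, Sema6b), and TTCNNNGAA in 7.02% and in 2 (Efna3, Epha3). GGGCGG was in 32.7% of all promoters and 72.4% of member promoters, whose median GC content was 64.4% against 52.4% for all.

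In level, members spanned a range from below 0.2 to about 40 nRPKM as means over the libraries. Most varied little between libraries, while Slit3 ran from 0.0462 to 0.349 and Sema3c from 0.685 to 3.77 nRPKM. The ligand Sema3f, a secreted semaphorin that signals through neuropilin 2, was the most abundant, with a mean of 38.0 nRPKM over the 16 libraries (32.3 to 47.1). Unc50 followed at 25.5 (21.5 to 29.4) and Sema7a, a membrane-anchored semaphorin, at 21.4 (17.1 to 25.8). Plxnb1, a plexin that binds class 4 semaphorins, had a mean of 15.1 (12.5 to 19.3), and Slit2, the main secreted repellent of the Slit family, 14.4 (11.7 to 16.8). Ranges of neighbours in this order overlapped, apart from the step from Sema3f to Unc50. At the other end were Slit3 at 0.188 nRPKM, Ntn1, the netrin that attracts ganglion cell axons to the optic disc, at 0.199, Epha1 at 0.284 and Robo3 at 0.327. In uncrushed vehicle retina Ntn4, a netrin of basement membranes, was at 4.84 ± 0.643 nRPKM, beside 0.180 ± 0.0230 for Ntn1 (SD, n = 3). The netrins outside the rule, Ntn3 and Ntn5, were at 1.14 ± 0.119 and 0.270 ± 0.0180.

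**Figure D1:**
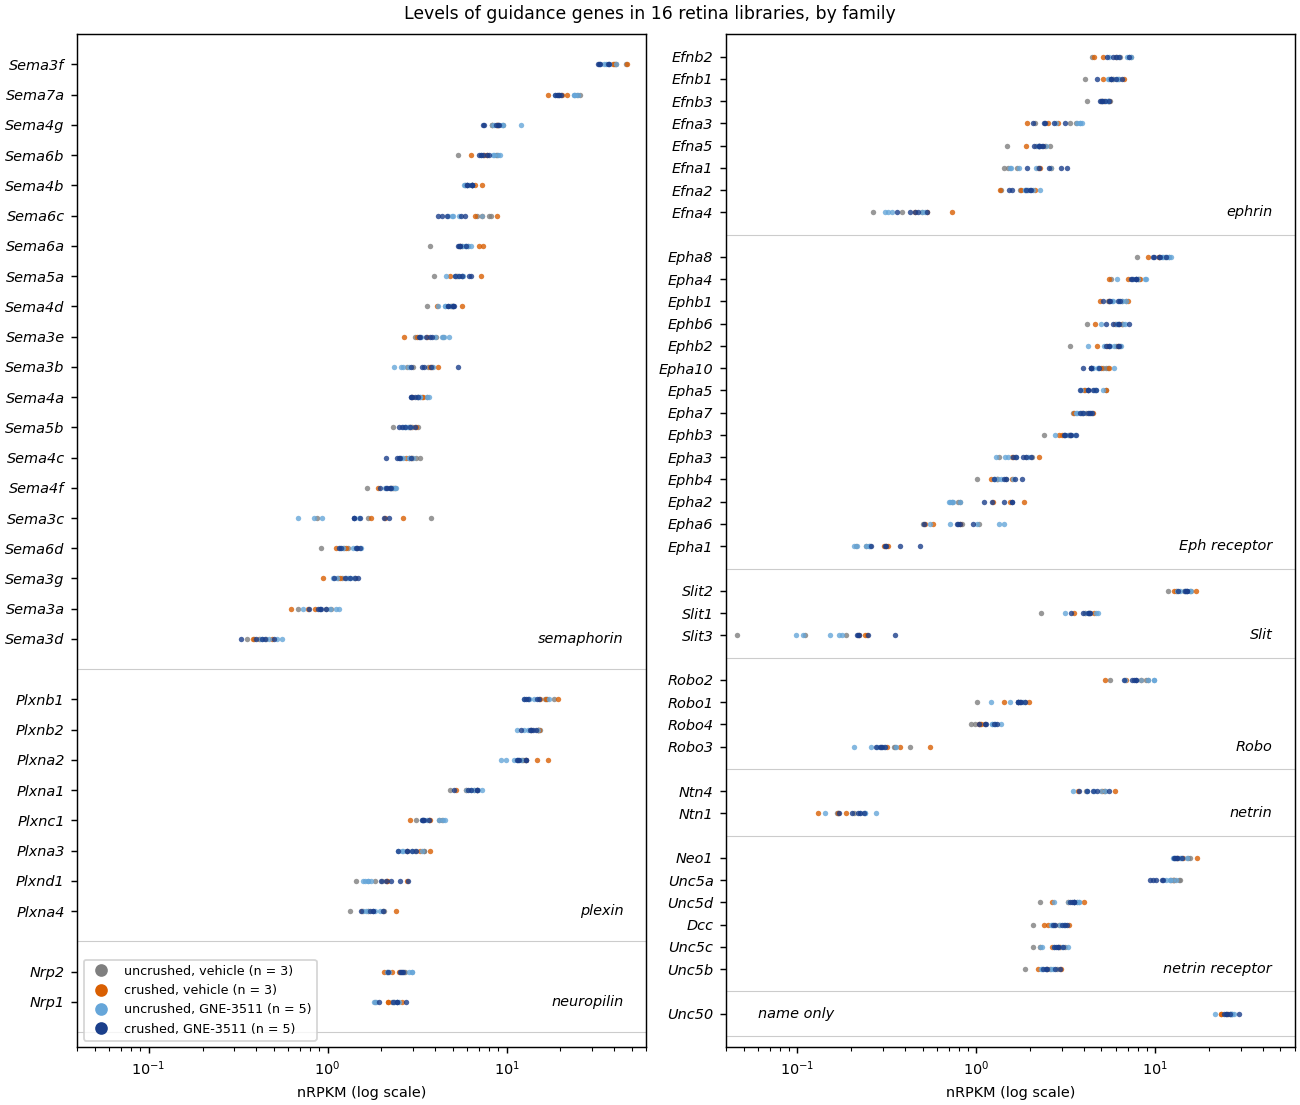
Level of each tested member in each of the 16 libraries, in nRPKM on a log scale, by family; each point is a library, coloured by group. Sema3f is the highest at 32.3 to 47.1 nRPKM, and for most members the 4 colours lie on top of each other, with Epha2, Epha1 and Slit3 among the exceptions.

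Summed over each family, levels moved little with the crush in vehicle retina. The 20 semaphorins came to 134.8 ± 6.04 nRPKM (SD, n = 3) in uncrushed and 133.6 ± 4.43 (n = 3) in crushed vehicle retina, and the 14 Eph receptors to 56.4 ± 9.38 and 56.1 ± 5.99. The 8 ephrins came to 25.1 ± 5.03 and 25.6 ± 2.71, the 9 plexins to 61.6 ± 1.52 and 63.5 ± 4.95, and the 6 netrin receptors to 38.9 ± 4.16 and 38.6 ± 3.73. In each of these 5 families the mean difference was smaller than the larger of the SDs. With GNE-3511 the semaphorin sum was 128.3 ± 2.06 in uncrushed and 120.6 ± 4.21 in crushed retina (n = 5 each), the plexin sum 54.9 ± 3.62 and 56.0 ± 2.67, and the netrin receptor sum 37.3 ± 1.67 and 35.4 ± 1.46. With the drug, the differences for semaphorins and netrin receptors were larger than the larger SD and that for plexins was not. In uncrushed retina the plexin sums with GNE-3511 (49.11 to 57.97) lay below those with vehicle (60.0 to 63.01), while in crushed retina they overlapped (53.34 to 60.41 and 58.15 to 67.89). The semaphorin sums in crushed retina were 116.7 to 127.3 with the drug and 130.1 to 138.6 with vehicle. Sums were not tested.

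The first comparison asks what the crush did with vehicle. Epha2 rose, and no other member was called at an adjusted p of 0.05 or less: 1 of 68, beside 2.63% of all 19391 genes (1.77% higher and 0.861% lower). Epha2 is an Eph receptor whose ephrin-A ligands are also made in the retina. It stood at 0.731, 0.815 and 0.785 nRPKM in the uncrushed vehicle retinas and at 1.85, 1.25 and 1.53 in the crushed ones. The top value is that of crushed vehicle replicate 1, and without that library Epha2 was still called. The groups did not overlap, and the lowest crushed retina was well above the highest uncrushed one. The fitted log2 change was 0.98 ± 0.16 (SE; 95% interval 0.65 to 1.31; adjusted p = 0.00139, edgeR quasi-likelihood test with Benjamini-Hochberg adjustment). The counts behind it were 79 to 280 reads per library. The Epha2 gene spans chr4:141301221-141329384 in GRCm38, with no exon shared with another gene.

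With GNE-3511 the crush moved the same receptor and 2 more. Called members were 3 of 68, beside 5.33% of all genes, 2 of them higher (3.29% of all genes) and 1 lower (2.04%). Epha2 stood at 0.705, 0.711, 0.808, 0.730 and 0.740 nRPKM in uncrushed and at 1.22, 1.59, 1.42, 1.57 and 1.10 in crushed retina, again with no overlap. Its log2 change was 0.90 ± 0.12 (interval 0.65 to 1.16; adjusted p = 0.00014, edgeR quasi-likelihood test with Benjamini-Hochberg adjustment). Plxnd1 stood at 1.62, 1.75, 1.67, 1.58 and 1.68 in uncrushed and at 2.27, 2.83, 2.12, 2.54 and 1.98 in crushed retina. Each crushed retina was above each uncrushed one, and the change was 0.50 ± 0.11 (interval 0.28 to 0.73; adjusted p = 0.00665, edgeR). Unc5a stood at 11.5, 12.1, 12.6, 12.1 and 13.1 in uncrushed and at 9.70, 9.32, 10.1, 11.1 and 10.9 in crushed retina. It was lower in each crushed retina than in any uncrushed one, by a log2 change of -0.26 ± 0.05 (interval -0.37 to -0.14; adjusted p = 0.00665, edgeR). Without the 3 libraries rich in lens transcripts the Unc5a change was -0.21 and was no longer called (adjusted p = 0.0952, edgeR). Epha2 and Plxnd1 stayed called there. The count of called members was at least 3 in that fit too, so some member not called in the main fit was called in it.

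The same 2 genes with vehicle gave values that were not called. Plxnd1 stood at 1.45, 2.01 and 1.84 nRPKM in uncrushed and 2.78, 2.15 and 2.16 in crushed vehicle retina, without overlap, a log2 change of 0.42 with an interval of 0.13 to 0.71 (adjusted p = 0.159, edgeR). Unc5a stood at 12.7, 13.8 and 13.6 and then at 12.6, 12.2 and 12.8, with overlapping groups and a log2 change of -0.10 (adjusted p = 0.808, edgeR). A gene called with the drug and not with vehicle is not thereby shown to differ between them. The difference of the crush effects was tested, and no member was called for it (beside 0.0103% of all genes), with an adjusted p of 1 for each in the edgeR fit and 1 member, Sema6a, at an unadjusted p under 0.05 (1.54% of all genes). DESeq2 called none either.

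**Figure D2:**
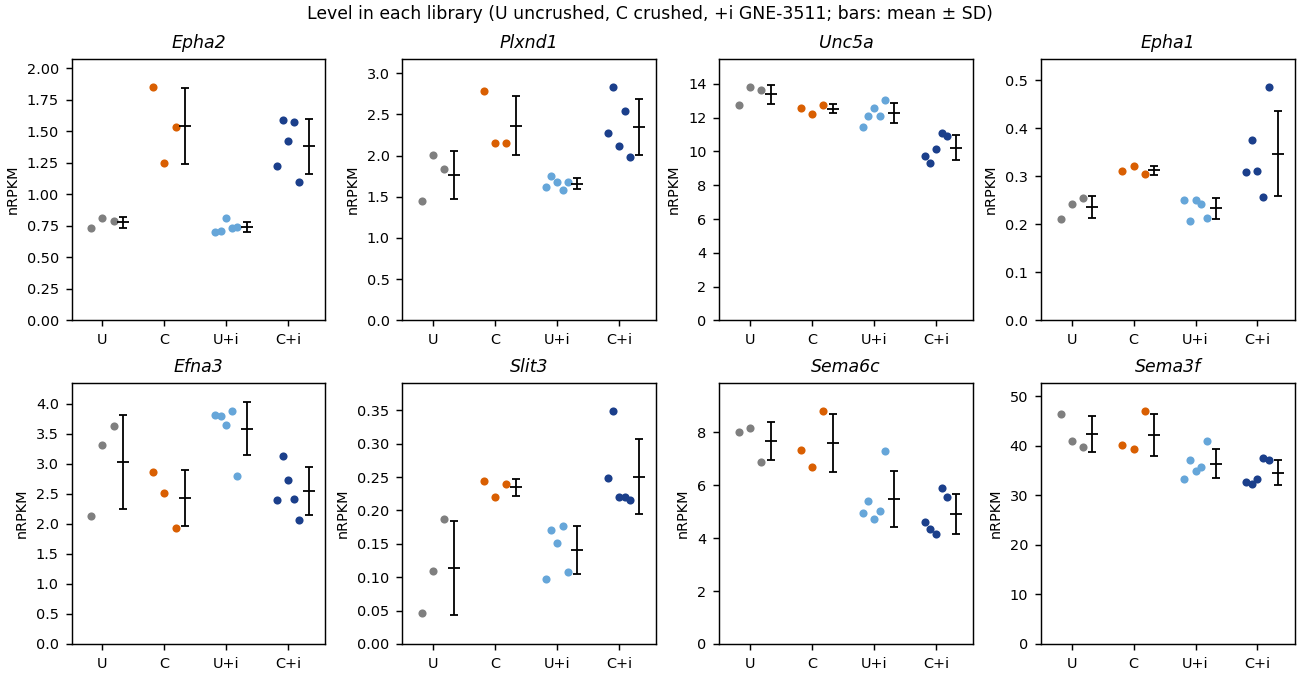
Levels in nRPKM in each of the 16 libraries for the 3 called members and for Epha1, Efna3, Slit3, Sema6c and Sema3f, with U for uncrushed, C for crushed and +i for GNE-3511; points are libraries and bars the group mean ± SD. Epha2 lies between 0.705 and 0.815 nRPKM in the 8 uncrushed retinas and between 1.10 and 1.85 in the 8 crushed ones.

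The 3 uncalled members with the lowest p in a crush comparison were Epha1, Efna3 and Slit3. Epha1, an Eph receptor of epithelia, stood at 0.211, 0.242 and 0.255 nRPKM in uncrushed and 0.312, 0.322 and 0.304 in crushed vehicle retina. With GNE-3511 it ran from 0.206 to 0.251 (median 0.242) in uncrushed and from 0.256 to 0.486 (median 0.311) in crushed retina. Neither pair of groups overlapped, on 18 to 68 reads per library, and the log2 changes were 0.40 with vehicle (adjusted p = 0.635) and 0.58 ± 0.17 with the drug (adjusted p = 0.0502, both edgeR). Reads of Epha1 and of its neighbour Zyx could not be told apart over 6.008% of its exon length, since the kit does not mark strand.

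Slit3, a Slit ligand also expressed by vessels, was at 0.0462, 0.110 and 0.186 nRPKM in uncrushed and 0.244, 0.220 and 0.239 in crushed vehicle retina. With the drug it was at 0.0977 to 0.177 in uncrushed and 0.215 to 0.349 in crushed retina. All 8 crushed retinas were above all 8 uncrushed ones, on 6 to 74 reads per library. The log2 changes were 0.97 ± 0.34 with vehicle (adjusted p = 0.193) and 0.82 ± 0.25 with the drug (adjusted p = 0.0677, both edgeR). The lowest of these values, 0.0462, is that of the shallow uncrushed vehicle replicate 1. The fit without that library called Slit3, Epha1 and Efna3 for the crush with the drug. Vehicle libraries are not compared there, and bear on it only through what the fit shares, such as the estimate of the spread.

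Efna3, an ephrin-A ligand, ran the other way. It was at 2.13, 3.32 and 3.62 nRPKM in uncrushed and 2.86, 2.52 and 1.93 in crushed vehicle retina, and at 3.80, 3.79, 3.64, 3.88 and 2.80 against 2.40, 3.14, 2.72, 2.41 and 2.06 with the drug. The groups overlapped in both cases, by 1 uncrushed library in the second. The log2 changes were -0.32 (adjusted p = 0.698) and -0.49 ± 0.15 (adjusted p = 0.0644, both edgeR). An antisense gene covers 14.13% of its exon length.

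**Figure D3:**
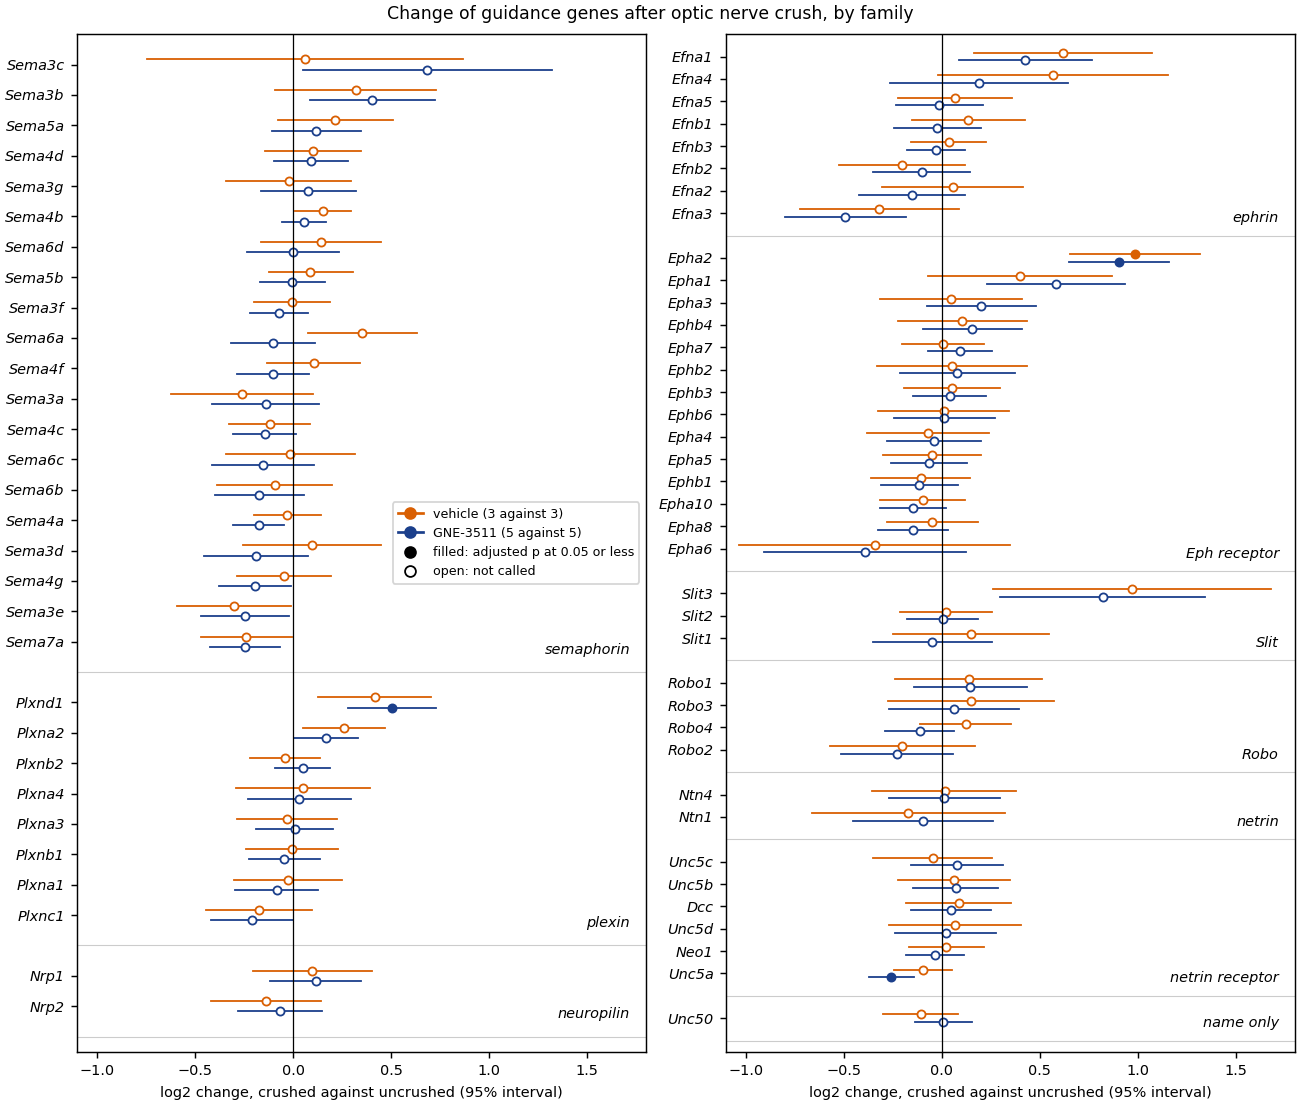
Fitted log2 change, crushed against uncrushed, with its 95% interval for the 68 tested members, by family; orange is vehicle and blue is GNE-3511, and a filled point was called at an adjusted p of 0.05 or less. Epha2 is filled in both colours, Plxnd1 and Unc5a in blue, and most intervals cross 0.

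By role, the ligands gave 0 calls of 33 in both crush comparisons, with 6 members at an unadjusted p under 0.05 with vehicle and 9 with the drug in the edgeR fit. DESeq2 called no ligand with vehicle and 2, Efna3 and Slit3, with the drug. The edgeR fit takes the retinas as unpaired. With the replicate block added after seeing the data (last section), ligands were called in both comparisons. They were Efna1, Sema3e and Sema6a with vehicle, and 9 with the drug. These block and DESeq2 counts are not set beside the share of all genes called in the same fits. They do not show whether ligands exceed that share. In the main edgeR fit the receptors gave 1 and 3 calls of 34, beside 2.63% and 5.33% of all genes. Over all members the unadjusted counts were 9 and 14 of 68, beside 10.4% and 14.4% of all genes. The members' median log2 change was 0.03 with vehicle and -0.01 with the drug, where the medians over all genes were -0.003 and -0.001. The median for the 20 semaphorins was 0.03 and -0.10, for the 14 Eph receptors 0.01 and 0.03, and for the 8 ephrins 0.06 and -0.03.

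For most members the data bound the change to a narrow range. The 95% interval lay within 1.5-fold in either direction for 54 of 68 members with vehicle (79.4%, beside 65.6% of all genes) and for 58 with the drug (85.3%, beside 73.6%). For Slit2 the interval was -0.21 to 0.26 with vehicle and -0.17 to 0.19 with the drug on the log2 scale. For Neo1, a netrin and RGM receptor, it was -0.17 to 0.21 and -0.18 to 0.12, and for Dcc, the attractive netrin receptor, -0.18 to 0.35 and -0.16 to 0.25. Wide intervals belonged to members with few reads or unequal libraries. That of Sema3c, a secreted semaphorin, was -0.74 to 0.86 with vehicle, where its uncrushed retinas held 3.77, 1.69 and 0.871 nRPKM, and that of Epha6 was -1.03 to 0.35.

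Groups that did not overlap were counted as a description. These counts, here and for the drug effects below, used normalised CPM (read counts scaled to library depth) and not nRPKM. With vehicle, 6 members were higher in every crushed than in every uncrushed retina (Efna1, Epha1, Epha2, Plxnd1, Sema3b and Slit3), 8.82% of members beside 8.28% of all genes, and none was lower in this way, beside 4.65%. With the drug 4 were higher (Epha1, Epha2, Plxnd1 and Slit3), 5.88% beside 3.51%, and 1 was lower (Unc5a), 1.47% beside 3.20%. The direction of the fitted changes was alike with vehicle and with the drug, comparisons that share no library: 52 of 68 members had the same sign (76.5%, beside 66.5% of all genes), with Pearson's r of 0.83 across members and 0.77 without the 3 called ones, beside 0.66 across all genes; Spearman's coefficient was 0.71 across members and 0.47 across all genes. Genes are not independent replicates, and read depth differed among the libraries of each arm.

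Levels of other cell types and of lens moved with the crush as well, and their part in the results was not tested unless a value without the library is given. The 11 lens markers were all lower with the crush in both arms, by medians of -3.27 and -2.88; none was called with vehicle (edgeR; 7 at an unadjusted p under 0.05) and 8 fell with the drug. Their summed level was 1.846 to 224.5 nRPKM in uncrushed and 1.355 to 17.41 in crushed vehicle retina, and 12.65 to 508.8 and 2.832 to 20.67 with the drug, and the 3 lens-rich libraries are all uncrushed. Over 14 microglia and macrophage markers the summed level was 49.31 to 51.39 nRPKM in uncrushed and 73.62 to 90.77 in crushed vehicle retina, and 39.66 to 57.67 and 60.16 to 108.7 with the drug; 7 and 13 of the 14 rose. Over 8 astrocyte and gliosis markers it was 43.82 to 47.58 and 101.4 to 105.5 with vehicle, and 35.91 to 59.4 and 69.42 to 139.5 with the drug, where 3 and 5 of 8 rose. Of the 11 endothelial markers, which bear on Plxnd1, Slit3 and the vessel receptor Robo4, none was called with vehicle and 1 (Vwf) rose with the drug. The sums of these 11 overlapped, at 55.13 to 73.56 and 62.26 to 85.02 with vehicle and 58.43 to 69.9 and 63.81 to 82.77 with the drug. Of the 19 ganglion cell markers 11 fell and 1 rose with vehicle, and 13 fell and 1 rose with the drug. No marker of these lists was at 0 in all libraries of a group. Markers also moved with the drug against vehicle. Of the 19 ganglion cell markers, 19 were higher in uncrushed retina (median log2 change 0.296, 0 called) and 18 in crushed retina (0.261, 4 called). The 8 markers of the retinal pigment epithelium had medians of -0.765 and -0.396, with 0 called in each. Their part in the drug results was not tested.

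The next comparison asks what GNE-3511 did within retinas of the same injury. In crushed retina Unc5a fell, the 1 member of 68 called (beside 0.505% of all genes, 0.376% lower). Its values were 12.6, 12.2 and 12.8 nRPKM with vehicle and 9.70, 9.32, 10.1, 11.1 and 10.9 with the drug, without overlap. The log2 change was -0.29 ± 0.06 (interval -0.42 to -0.16; adjusted p = 0.0413, edgeR quasi-likelihood test with Benjamini-Hochberg adjustment). The call was not firm: leaving out 1 library at a time, it held in 3 of 16 fits, with a log2 change of -0.32 to -0.26 and an adjusted p of 0.0345 to 0.221 (edgeR). It was lost without the lens-rich libraries (adjusted p = 0.0652) and without the 2 shallow ones (adjusted p = 0.149, both edgeR).

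Sema6c, a membrane semaphorin, came next and was not called. It was at 7.33, 6.69 and 8.82 nRPKM with vehicle and 4.63, 4.34, 4.15, 5.89 and 5.55 with the drug in crushed retina, and at 8.03, 8.16 and 6.87 against 4.95, 5.41, 4.72, 5.02 and 7.29 in uncrushed retina. The groups were apart in crushed retina, while in uncrushed retina replicate 5 of the drug, the library richest in lens transcripts, lay within the vehicle range. The log2 changes were -0.63 ± 0.14 (adjusted p = 0.0549) and -0.49 ± 0.14 (adjusted p = 0.106, both edgeR). In crushed retina Sema6c was called with no filter on low counts (adjusted p = 0.0299, edgeR) and without the 3 lens-rich libraries (adjusted p = 0.0377, edgeR). DESeq2 called Sema6c in both and Sema3f in crushed retina. Sema3f was at 40.1, 39.3 and 47.1 nRPKM with vehicle and 32.6, 32.3, 33.3, 37.5 and 37.1 with the drug in crushed retina. There the groups did not overlap, and the log2 change was -0.29 (adjusted p = 0.134, edgeR).

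In crushed retina 5 members were lower in every drug than in every vehicle library (Plxnb1, Robo3, Sema3f, Sema6c and Unc5a), 7.35% beside 4.87% of all genes, and none was higher in this way, beside 4.83%. In uncrushed retina no member was called in the edgeR fit, beside 0.629% of all genes (0.263% higher, 0.366% lower); 9 members had an unadjusted p under 0.05, beside 17.3%, and DESeq2 called 2, Robo4 and Sema6c. In normalised CPM Robo4, the Robo of endothelial cells, had each drug library above each vehicle library (1.47% of members beside 5.03% of all genes). Its log2 change was 0.36 ± 0.10 (adjusted p = 0.105, edgeR). Plxna2 had each drug library below each vehicle library (1.47% beside 4.51%), with -0.21 (adjusted p = 0.240, edgeR). In nRPKM the Plxnb2 groups did not overlap either, at 14.96 to 15.29 with vehicle and 11.48 to 14.92 with the drug. The drug effects in crushed and uncrushed retina share no library, and 55 of 68 members had the same sign in both (80.9%, beside 74.3% of all genes), with Pearson's r of 0.72 across members and 0.38 across all genes and Spearman's coefficient of 0.67 and 0.56. The crushed and uncrushed retinas may still come from the same mice, which the labels do not settle. A difference between the mice of the arms would then enter both effects, and this was not tested.

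**Figure D4:**
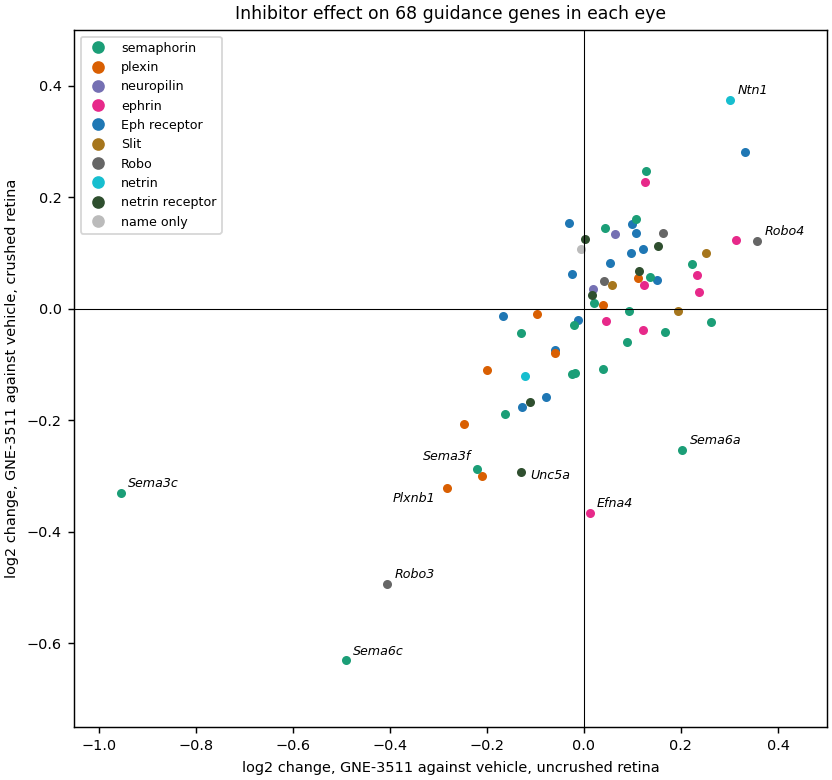
Fitted log2 change with GNE-3511 against vehicle for the 68 tested members, in uncrushed retina on the horizontal and crushed retina on the vertical axis; each point is a gene, coloured by family. Most points lie near 0, and Sema6c lies farthest down, at -0.49 and -0.63.

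Other genes of the pathway came from lists drawn up by function, with earlier results of these data known. Beside the counts of these lists, 2.63% of all genes were called for the crush with vehicle and 5.33% with the drug. For the drug in crushed retina it was 0.505%. Of 34 further guidance ligands and co-receptors, none was called in either crush comparison (edgeR; 3 with vehicle and 7 with the drug at an unadjusted p under 0.05), with median log2 changes of -0.07 and -0.06. The lowest p with vehicle was that of Flrt3, a ligand of Unc5 receptors, at 3.19 ± 0.662 nRPKM before and 4.62 ± 0.821 after the crush (SD, n = 3), a change of 0.53 ± 0.15 (adjusted p = 0.0836, edgeR), which DESeq2 called.

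Among 52 cytoplasmic signalling genes of guidance receptors, 2 rose and 1 fell with vehicle, and 2 rose and 3 fell with the drug; the medians were 0.03 and -0.02. Limk1, the kinase that phosphorylates cofilin, fell from 7.40 ± 1.56 to 4.76 ± 0.860 nRPKM with vehicle (n = 3) and from 8.08 ± 0.841 to 4.90 ± 0.470 with the drug (n = 5). Its log2 changes were -0.64 ± 0.15 (adjusted p = 0.0251) and -0.72 ± 0.11 (adjusted p = 0.00069, both edgeR). Rock2, a kinase that acts on the actin cytoskeleton, rose from 10.2 ± 0.424 to 12.8 ± 0.951 and from 10.2 ± 0.797 to 12.2 ± 0.422, by 0.33 ± 0.07 (adjusted p = 0.0197) and 0.27 ± 0.06 (adjusted p = 0.00843, both edgeR). Rnd1, a small GTPase that binds plexins, rose by 0.47 ± 0.11 (adjusted p = 0.0333) and 0.39 ± 0.09 (adjusted p = 0.0111, both edgeR). Dpysl5, a collapsin response mediator, fell with the drug from 10.7 ± 0.376 to 8.22 ± 0.293, by -0.38 ± 0.09 (adjusted p = 0.0193, edgeR). Without the 3 lens-rich libraries the calls of Rock2 and Rnd1 in both arms, of Limk1 with vehicle and of Dpysl5 with the drug were lost, and Limk1 with the drug was kept. Without the 2 shallow vehicle libraries the vehicle calls of Rock2 and Rnd1 were lost (adjusted p = 0.0651 and 0.105, edgeR). The vehicle calls of Limk1, Rock2 and Rnd1 were also lost in fits of the compared groups alone.

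Among receptors and ligands of myelin and glycan inhibitors, 11 of 13 were tested and 1 was called: Rtn4r, the Nogo receptor, fell with the drug from 2.67 ± 0.408 to 1.68 ± 0.171 nRPKM, by -0.67 ± 0.15 (adjusted p = 0.00888, edgeR; 0.0645 without the lens-rich libraries). Among 23 transcription factors that pattern retinal guidance, 1 rose and 4 fell with vehicle, and 1 rose and 3 fell with the drug. Sox11, a factor of immature neurons, rose from 0.279 ± 0.0369 to 2.39 ± 0.344 with vehicle and from 0.293 ± 0.0386 to 1.46 ± 0.410 with the drug, by 3.08 ± 0.23 (adjusted p = 4.65e-07) and 2.32 ± 0.17 (adjusted p = 2.6e-07, both edgeR). Isl2, Pou4f1 and Pou4f2, which are also ganglion cell markers, changed with vehicle by -1.70, -1.45 and -1.77 (adjusted p = 0.0001, 0.0021 and 0.00168, edgeR) and were the 3 factors higher with the drug in crushed retina, by 1.37, 1.39 and 1.37 (adjusted p = 0.0032, 0.0108 and 0.0277, edgeR). The last of these calls, of Pou4f2, was lost without the shallow or the lens-rich libraries (adjusted p = 0.114 and 0.0519, edgeR), and with the compared groups alone. In fits of the compared groups alone the vehicle calls of Pou4f1 and Pou4f2 were lost too (adjusted p = 0.06 and 0.067, edgeR). With the drug the crush calls of Isl2 (-0.57) and Pou4f2 (-0.78) were lost without the lens-rich libraries (adjusted p = 0.0687 and 0.0752, edgeR). Leaving out 1 library at a time, these crush calls held in 10 and 8 of 16 fits. The Pou4f1 call for the drug in crushed retina held in 15, and was lost without crushed vehicle replicate 1 (adjusted p = 0.0565, edgeR). In the test of the difference of crush effects the adjusted p of Isl2 was 1 (edgeR).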

How the data were processed

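Poly(A) RNA libraries of mouse retina were sequenced as single reads of 50 bases. Per the file headers, the authors deposited a count of uniquely aligned reads for each gene model. The aligner was GSNAP and the build GRCm38, per the submitters' processing notes; their versions: not given in the sources used here. Levels are the authors' nRPKM, which per the file headers is RPKM adjusted by a size factor. Identifiers were named through RefSeq; 5479 of 36528 had no symbol and held 1.098% to 1.216% of counts.

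The test was edgeR's quasi-likelihood F test (version 4.0.16, R 4.3.3; two-sided, after TMM and filterByExpr), fitted to the counts of all 16 libraries with 1 mean for each group. Adjusted p-values are Benjamini-Hochberg over 19391 genes, called at 0.05. SE is the log2 change over the root of F, and 95% intervals use 12 residual and 5.27 prior degrees of freedom. Alternatives were DESeq2 1.42.0, limma 3.58.1 voom, upper-quartile scaling, no filter, only the groups compared, libraries left out and, added after seeing the data, a block from consecutive title numbers. The procedure was tested on simulated counts.

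The members and lists were chosen with earlier results of these data known. Named were members called in any comparison, the 3 uncalled with the lowest crush p, the 5 most abundant, and up to 4 called genes of each pathway list; further members named for their groups, intervals or role were chosen after their values were seen. Exon overlap came from the GENCODE annotation of the same build: 16 of 70 members had some and 0 more than 25% of their exon length.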

Additional observations from a re-analysis of the deposited data

Results flagged for a closer look

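Each tested member was examined in each group of 5 libraries, which gave 136 groups of values. In 10 of the 136 (7.35%) 1 value stood apart from the rest by Dixon's criterion at the 95% level. Chance alone marks about 1 in 20 groups. Uncrushed GNE-3511 replicate 5, the library with the most lens transcripts, gave 5 of these 10 values. In it Unc50 was low at 21.5 nRPKM (next 26.33), Sema7a low at 18.64 (next 23.74) and Efna3 low at 2.8 (next 3.644), while Sema6c was high at 7.289 (next 5.409) and Epha10 high at 5.842 (next 4.765). In uncrushed GNE-3511 replicate 1, Efna5 was high at 2.463 (next 2.271). In crushed GNE-3511 replicate 1, Slit2 was low at 13.37 (next 14.57) and Nrp2 low at 2.172 (next 2.53). In crushed GNE-3511 replicate 2, Slit3 was high at 0.3494 (next 0.2489), and in replicate 4 Plxnc1 was high at 3.669 (next 3.437). No cause was tested.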

How the results depend on the processing

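No label ties a retina to a mouse. The numbers in the titles run in 8 consecutive pairs of a crushed and an uncrushed retina of the same drug, and a fit with these as a replicate block was added after seeing the data. Deviations from the group means correlated within pairs at r = 0.045 to 0.438, above 0.1 in 7 of the 8 pairs, and 14 of 16 libraries correlated best with their own pair, a hint from the data and not from the design. Under this replicate block, with 6 residual degrees of freedom, 6 members were called for the crush with vehicle (Efna1, Epha2, Plxna2, Plxnd1, Sema3e and Sema6a). For the crush with GNE-3511 it called 15, with 9 ligands among them, and for the difference 0. No call of a member named in the report was lost in these comparisons. The counts in this section are not set beside the share of all genes called in the same fit. They do not show whether members exceed that share. Epha2 was called in all alternatives run, in both crush comparisons, with log2 changes of 0.82 to 1.11 and 0.85 to 0.98 when 1 library was left out; Plxnd1 with the drug likewise (0.43 to 0.56). No result reversed its direction. For the crush with GNE-3511, 3 members were called; DESeq2 called 5 and the fit of the compared groups alone 5 (both adding Efna3 and Slit3), and the fit without the 2 shallowest vehicle libraries 6 (adding Sema7a too). Leaving out 1 library gave 3 to 6: 6 without uncrushed vehicle replicate 1, and 5 without uncrushed GNE-3511 replicate 1 (adding Efna1 and Sema3b) or replicate 5. For the crush with vehicle the count was 1 in every other alternative, and 1 to 2 leaving out 1 library (2, with Slit3, without uncrushed vehicle replicate 3). For the drug in crushed retina the count was 1, but 3 with DESeq2 and 0 with the compared groups alone, and 0 to 2 leaving out 1 library: 2 (Sema6c and Unc5a) without uncrushed vehicle replicate 1, uncrushed GNE-3511 replicate 5 or crushed GNE-3511 replicate 4, and 0 without each of the other 13 libraries. For the drug in uncrushed retina it was 0, and 2 with DESeq2; leaving out 1 library gave 0 to 2 (2, Plxnb1 and Sema6c, without uncrushed GNE-3511 replicate 5). The difference of crush effects gave 0 in all. Unc5a for the drug in crushed retina was also lost with no filter and without the shallow or lens-rich libraries. The count stayed at 1 in these fits because another member was called. That member was Sema6c with no filter and without the lens-rich libraries. Without the shallow libraries it was neither Sema6c nor Unc5a. The vehicle calls of Limk1, Rock2 and Rnd1 were lost without some single vehicle libraries (adjusted p up to 0.137, 0.166 and 0.166, edgeR). Crushed vehicle replicate 1 was among these for each of the 3 genes. Pou4f2 with the drug in crushed retina held in 11 of 16 fits leaving out 1 library. The cause of these changes was not tested. Members with few reads (Slit3, Epha1) had wide intervals.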
